A study of Mus musculus with 6 samples.

Results

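The genes described here are 10 transcription factor genes, several of which cells switch on within minutes of a stimulus. They are the 4 Fos family genes Fos, Fosb, Fosl1 and Fosl2 and the 3 Jun family genes Jun, Junb and Jund. The others are the zinc finger genes Egr1 and Egr2 and the stress gene Atf3. All 10 were chosen by gene symbol and are among the 54532 genes of the expression table. RNA was sequenced from mouse T cells after co-culture with ID8 cells, an ovarian cancer line from C57BL/6 mice. In 3 libraries (cisplatin) the ID8 cells had been pretreated with 40 µM cisplatin, a DNA-crosslinking drug, and in the other 3 (control) with PBS. In both groups the T cells were taken from spleens of C57BL/6 mice aged 6 to 8 weeks by pan T-cell isolation, given IL-2 at 10 ng/mL, and activated for 72 h with anti-CD3/CD28 beads, so the control cells were stimulated too. No knockout or transgene was involved, and the drug was given to the cancer cells, which are a single line. The paper speaks of independent samples and biological replicates without saying whether they were separate mice or separate cultures, and the p-values measure the spread between these libraries.

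AP-1 is a family of dimers. Jun proteins pair with each other, with Fos proteins or with ATF proteins through a leucine zipper next to a basic DNA-binding stretch (bZIP), and Fos proteins need a Jun partner to bind DNA. Immediate early genes are so called because their transcription needs no new protein, which need not hold for every gene described here. MAP kinases phosphorylate factors already bound at immediate early promoters. Among these factors are ternary complex factors with SRF at the CArG box, and Jun and ATF2 at AP-1- and CRE-like sites. In T cells the antigen receptor and CD28 drive this step, AP-1 joins NFAT on cytokine genes, and Egr2 and Egr3 are also known as brakes on T-cell activation.

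Promoter windows from RefSeq (GRCm38.p6, 300 bases around a transcript start) were at hand for 8 of the 10 genes, Fosl1 and Egr1 being the other two. Sequences are shown for the 3 genes in which one of the searched elements stands upstream of a listed RefSeq start. That element is in capitals: a TATA box (TATAAA) for Fos, a CRE-like site (TGACNTCA) for Jun and a CArG box for Egr2. The Fos stretch is chr12:85473640-85473889 on the plus strand, the Jun stretch chr4:95052223-95052472 read on the minus strand, and the Egr2 stretch chr10:67537787-67537816 on the plus strand, each written 5′ to 3′.
Fos: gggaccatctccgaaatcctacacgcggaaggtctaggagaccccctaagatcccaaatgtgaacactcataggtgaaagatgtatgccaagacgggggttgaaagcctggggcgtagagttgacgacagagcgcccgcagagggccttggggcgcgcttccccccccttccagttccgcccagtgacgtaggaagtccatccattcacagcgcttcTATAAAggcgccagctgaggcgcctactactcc
Jun: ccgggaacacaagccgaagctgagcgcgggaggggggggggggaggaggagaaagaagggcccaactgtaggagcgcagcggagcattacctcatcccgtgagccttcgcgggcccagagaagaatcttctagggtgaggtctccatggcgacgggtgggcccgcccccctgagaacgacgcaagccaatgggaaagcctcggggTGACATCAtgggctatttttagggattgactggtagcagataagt
Egr2: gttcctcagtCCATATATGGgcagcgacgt
Counting back from the start, with -1 as the base before it, the TATA box of Fos lies at -33 to -28 and the CRE-like site of Jun at -45 to -38. The CArG box shown for Egr2 lies at -72 to -63 from one of its 5 listed starts. A different CArG box, CCTTTTTTGG, lies at -72 to -63 from another of them. Egr2 was thus searched in 5 windows, whereas the shares below are per window. Both strands were searched. The Junb window also holds TATAAA, at bases 1 to 6 from its listed start, and is not shown. That listed start differs from the gene start in the expression table (84978718, minus strand), and the match lies upstream of the latter. Of 32851 windows of the same length in the genome, 13.6% hold TATAAA, 8.83% hold TGACNTCA and 1.63% hold a CArG box. The AP-1 site TGANTCA stands in 7.81% of those windows and in none of the windows of these 8 genes. A match is a description of letters and says nothing here about what binds.

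The libraries held 30606569 to 32169496 reads on genes, rebuilt from the deposited FPKM (fragment counts scaled for gene length and library size), and replicates were not identical. The T-cell label was checked on its markers: all 26 were measured, and 25 T-cell identity genes rose and 1 fell in the cisplatin libraries, their summed level running from 2930.9 to 3001.3 FPKM against 1882.8 to 1990.1 FPKM in control. Markers of ID8 cells went the other way, with 20 of 22 tested lower and 0 higher, a median log2 fold change of -2.32, and a sum of 306 to 314 FPKM against 1804 to 1889.9 FPKM, so control libraries held RNA of that kind in the larger amount. B-cell markers (10 of 10 higher; 3606.5 to 3684 against 1676.5 to 1759.6 FPKM) and myeloid markers (8 of 10 tested higher, 1 lower; 129 to 148 against 65.7 to 70.7 FPKM) also rose. Most of the B-cell sum came from a single gene, Ighm, at a mean of 3220 FPKM with cisplatin and 1433 FPKM in control. None of the 4 tested NK-cell and 2 tested erythroid markers passed, and no marker of these lists was at 0 in all libraries. These markers move with every result below, and their part in the results was not tested.

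The largest falls were those of Fosl2 and Fos, followed by Egr1 and Jun, while Atf3 did not pass the test and Egr2 rose, though not when libraries were centred on T-cell identity genes (log2 0.02). Of the 9 genes that averaged 0.5 FPKM or more, 7 fell (adjusted p under 0.05 in limma on log2(FPKM + 0.1)) and 1 rose. Over all 15874 genes tested, 29% fell and 27.5% rose by the same measure, and the median log2 fold change was 0.03 against -0.58 over the 9 genes. With a change of at least 2-fold also required, Fosl2, Fos and Egr1 were called lower and 0 were called higher, where 12.8% of all genes were called lower and 4.11% higher. The 3 cisplatin libraries lay wholly below the 3 control libraries for 7 of the 9 genes and wholly above for 1, against 32.3% and 31.9% of all genes. In bulk RNA, fewer cells of a type and less RNA per cell cannot be told apart.

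**Figure D1:**
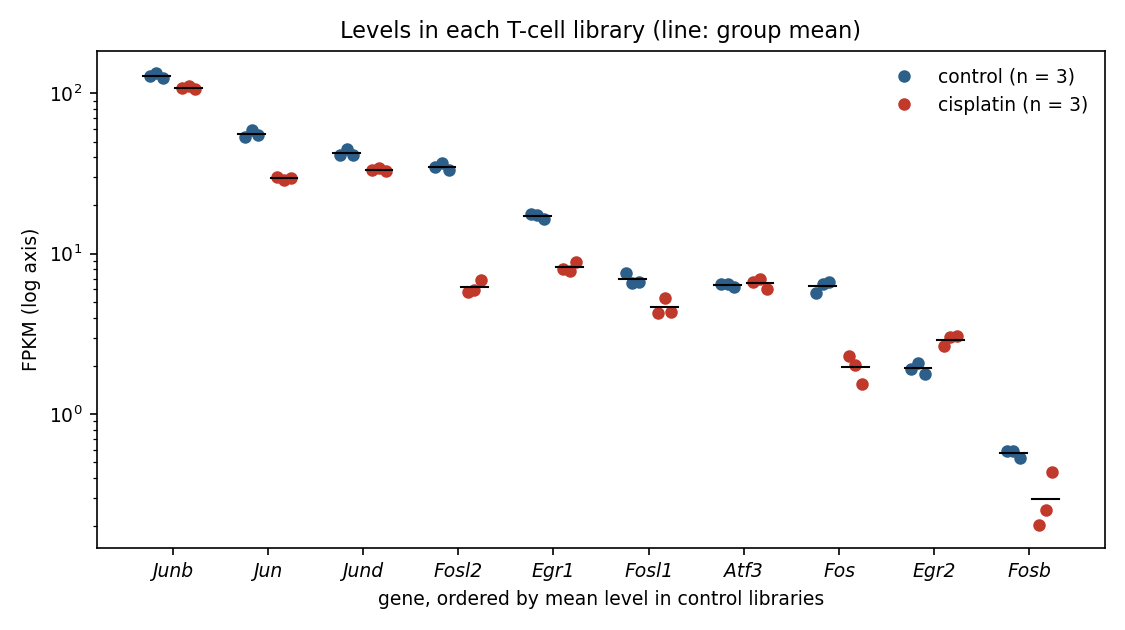
Level of each of the 10 genes in FPKM (vertical log axis) in the 3 control and 3 cisplatin libraries, with genes ordered by their control mean; each point is a library and each line a group mean. Fosl2 stands at 33.0 to 36.8 FPKM in control and 5.79 to 6.89 FPKM in cisplatin libraries, Egr2 is the gene whose cisplatin points lie above control, and the points of Atf3 overlap.

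The levels spanned a wide range within a library. In control libraries Junb was highest at 128.8 FPKM, followed by Jun (55.7), Jund (42.7), Fosl2 (34.9), Egr1 (17.2), Fosl1 (6.94), Atf3 (6.40), Fos (6.26), Egr2 (1.93) and Fosb (0.571 FPKM). Each neighbour in that order was separated in every library except Atf3 and Fos, whose ranges overlapped. In cisplatin libraries the order was Junb, Jund, Jun, Egr1, Atf3, Fosl2, Fosl1, Egr2, Fos and Fosb, with only Atf3 and Fosl2 overlapping. Fosl2 thus dropped from above Egr1 to below it, Jund stood above Jun, and Egr2 stood above Fos. FPKM are per length of gene, so these orders compare genes on a common scale.

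Fosl2 (ENSMUSG00000029135, chr5:32135801-32157842, plus strand) encodes Fra-2, a Fos protein without the strong activation domain of c-Fos. Its level was 5.79, 5.90 and 6.89 FPKM in the cisplatin libraries and 34.8, 36.8 and 33.0 FPKM in the control libraries. The lowest control library stood well above the highest cisplatin library. The means, 6.19 ± 0.606 and 34.9 ± 1.90 FPKM (SD, n = 3 each), were 5.64-fold apart, a log2 fold change of -2.48 (SE 0.08, 95% interval -2.67 to -2.29, limma adjusted p = 8.5e-07). Reads were ample, with means of 1955 and 10212 on the gene. Its log2 change stands beside the median of -2.32 for the ID8 markers.

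Fos (ENSMUSG00000021250, chr12:85473890-85477273, plus strand), the c-Fos gene whose TATA box is shown above, is among the shortest-lived of immediate early transcripts. It measured 2.30, 2.01 and 1.55 FPKM with cisplatin and 5.66, 6.45 and 6.65 FPKM in control. The groups did not overlap, and the relative spread was wider in the cisplatin libraries. The mean fell from 6.26 ± 0.521 to 1.95 ± 0.379 FPKM, a 3.20-fold difference (log2 -1.64, SE 0.15, interval -2.002 to -1.285, limma adjusted p = 1.2e-04).

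Fosl1 (ENSMUSG00000024912, chr19:5447703-5455945, plus strand) encodes Fra-1, another Fos protein that lacks that domain. Its levels were 4.25, 5.32 and 4.30 FPKM against 7.59, 6.53 and 6.70 FPKM in control, so every cisplatin library was lower. The fall was smaller than that of Fosl2 or Fos, at -0.58 on the log2 scale (SE 0.11, interval -0.84 to -0.32, limma adjusted p = 0.0035), and the intervals of Fosl1 and Fosl2 did not meet.

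Fosb (ENSMUSG00000003545, chr7:19302696-19310051, minus strand) was the lowest of the 10 genes and missed the expression minimum, so it was not tested with the others. It was at 0.203, 0.251 and 0.435 FPKM with cisplatin, from 41, 52 and 88 reads, and at 0.592, 0.588 and 0.532 FPKM in control, from 111, 110 and 102 reads. The groups stood apart, but the cisplatin libraries were uneven, with a mean of 0.296 ± 0.122 FPKM. Without the minimum its log2 fold change was -0.80 (limma adjusted p = 0.15), and with limma's voom on the rebuilt reads it was -1.02 (adjusted p = 0.0031), so whether it passes depends on the method.

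Jun (ENSMUSG00000052684, chr4:95049034-95052222, minus strand) encodes c-Jun, the Jun protein with the strongest activation domain, and lies in a single exon. It gave 30.2, 28.9 and 29.8 FPKM with cisplatin and 53.2, 58.8 and 55.0 FPKM in control. Replicates were tight in both groups and far apart between them. The mean fell from 55.7 ± 2.85 to 29.6 ± 0.681 FPKM (log2 -0.91, SE 0.04, interval -1.01 to -0.80, limma adjusted p = 6.0e-06), short of a 2-fold call. The antisense gene Junos, which overlaps part of Jun, averaged 0.526 FPKM with cisplatin and 1.25 FPKM in control. Without strand, reads in the stretch the 2 genes share cannot be told apart.

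Junb (ENSMUSG00000052837, chr8:84974484-84978718, minus strand) and Jund (ENSMUSG00000071076, chr8:70698949-70700616, plus strand) are single-exon genes for the Jun proteins that often oppose c-Jun. Junb measured 107.6, 111.6 and 106.7 FPKM against 128.1, 133.2 and 125.2 FPKM, and Jund measured 33.3, 34.5 and 32.7 FPKM against 41.5, 45.0 and 41.5 FPKM. For both, all cisplatin libraries lay below all control libraries, by a small margin. The log2 fold change was -0.25 for Junb (SE 0.03, limma adjusted p = 0.0010) and -0.35 for Jund (SE 0.04, limma adjusted p = 5.6e-04). Junb overlaps Prdx2 on the other strand, itself at 36.5 and 55.4 FPKM, so the value of Junb is uncertain if reads were counted without strand.

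The summed level of a family depends on the scaling between libraries. The Fos family summed to 12.5, 13.5 and 13.2 FPKM with cisplatin and 48.7, 50.4 and 46.9 FPKM in control. For the Jun family the sums were 171, 175 and 169 FPKM against 223, 237 and 222 FPKM. The make-up of a family within each library can be read without any such scaling. Fosl2 made up 47.4% ± 4.41 of the Fos family with cisplatin and 71.7% ± 1.34 in control (SD, n = 3 each). Fosl1 took the larger share with cisplatin, 35.3% ± 3.62 against 14.3% ± 1.32, while the share of Fos, 15.0% ± 3.29 and 12.9% ± 1.27, overlapped between the groups. The ratio of Fosl2 to Fosl1 was 1.36 ± 0.246 against 5.06 ± 0.538.

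In the Jun family, the share of Jun was 17.3% ± 0.649 with cisplatin and 24.5% ± 0.537 in control, that of Junb 63.3% ± 0.469 and 56.7% ± 0.677, and that of Jund 19.5% ± 0.196 and 18.8% ± 0.194. The ratio of Junb to Jun accordingly stood at 3.67 ± 0.169 against 2.32 ± 0.0789. Fos family transcripts amounted to 0.0761 ± 0.00243 of the Jun family with cisplatin and 0.214 ± 0.00370 in control. The shares and ratios are descriptions, and no test was run on them. Counted as reads in place of FPKM, which favours longer transcripts, Fosl2 held 80.6% of its family with cisplatin and 91.8% in control, Fosl1 10.7% and 3.23%, and Fos 6.27% and 4.01%. The directions for Fosl2 and Fosl1 were as before, and the shares of Fos no longer overlapped.

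**Figure D2:**
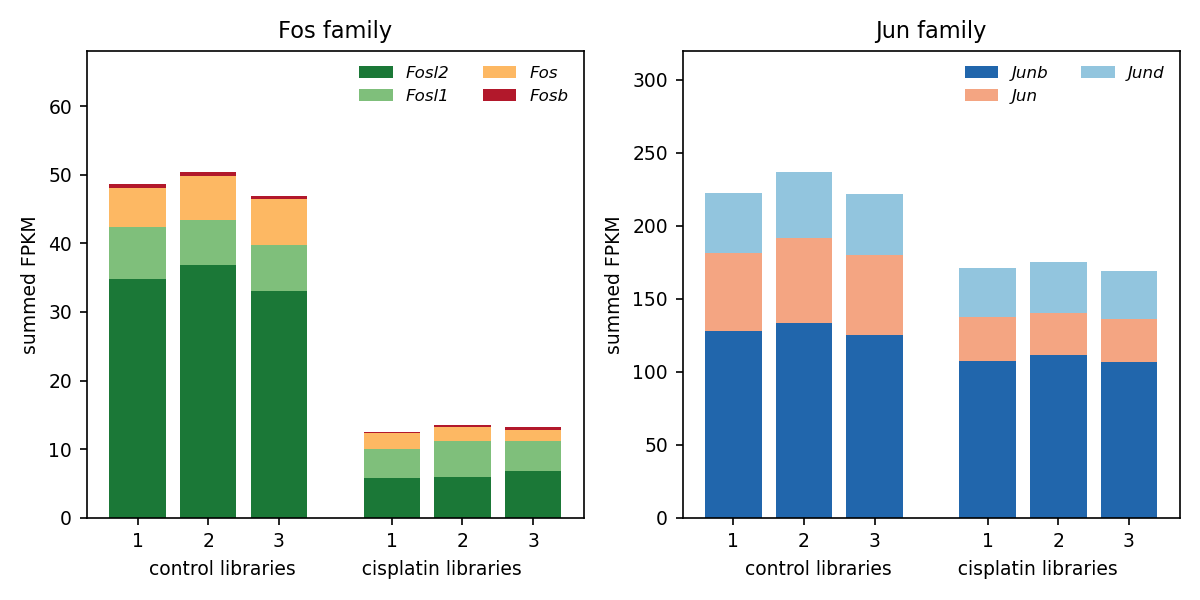
Summed FPKM of the Fos family (left) and Jun family (right) in each library, stacked by gene, with both vertical axes starting at 0. The Fos family stands at 46.9 to 50.4 FPKM in control and 12.5 to 13.5 FPKM in cisplatin libraries, and Fosl2 is the segment that shrinks most.

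Egr1 and Egr2, close relatives that bind the same GC-rich element, moved in opposite directions on the deposited scale, though after the T-cell centring Egr2 was at 0.02. Egr1 (ENSMUSG00000038418, chr18:34859823-34864984, plus strand) gave 8.06, 7.85 and 8.92 FPKM with cisplatin and 17.6, 17.4 and 16.6 FPKM in control, without overlap. It fell 2.08-fold (log2 -1.05, SE 0.06, interval -1.19 to -0.90, limma adjusted p = 1.2e-05), just past the 2-fold line. The log2 change was -0.97 with a pseudocount of 1 and -0.93 after quantile normalization, which end the 2-fold call.

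Egr2 (ENSMUSG00000037868, chr10:67535475-67542188, plus strand) gave 2.66, 3.02 and 3.06 FPKM with cisplatin and 1.91, 2.08 and 1.78 FPKM in control. All cisplatin libraries were the higher ones, on 292 to 340 reads against 186 to 212. The mean rose from 1.93 ± 0.149 to 2.91 ± 0.223 FPKM (log2 0.57, SE 0.11, interval 0.32 to 0.82, limma adjusted p = 0.0034), but when libraries were centred on the T-cell identity genes the change was 0.02 (adjusted p = 0.87). The rise of 0.57 stands beside the median of 0.60 for the T-cell identity genes. The ratio of Egr1 to Egr2, which needs no scaling, was 2.85 ± 0.224 with cisplatin and 8.96 ± 0.521 in control.

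Atf3 (ENSMUSG00000026628, chr1:191170296-191218039, minus strand), a bZIP factor induced by DNA damage and by the integrated stress response, was at 6.699, 6.948 and 6.002 FPKM with cisplatin and 6.448, 6.519 and 6.233 FPKM in control. The groups overlapped on both sides. Its log2 fold change was 0.03 (SE 0.07, limma adjusted p = 0.73), with a 95% interval of -0.13 to 0.19 that leaves room only for small changes on this scale. Centred on the T-cell identity genes it was -0.52 (adjusted p = 5.8e-04).

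Centring on the T-cell identity genes moved the median of all genes from 0.03 to -0.52. With it 8 of the 9 genes were lower, Atf3 joining them, 0 were higher, and Jun and Fosl1 also passed 2-fold, so 5 were called. Over all genes the centring put 64.8% lower and 5.09% higher at the adjusted p, and 22.6% lower and 0.926% higher with the 2-fold minimum, so counts after it are to be read against these shares. The falls of Fosl2, Fos, Egr1, Jun, Fosl1, Jund and Junb kept their direction and passed under each scaling tried, from -3.03 to -2.36 for Fosl2. Relative to the median of all genes the 9 genes stood at -0.61 in the median, a value the centring leaves as it was.

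**Figure D3:**
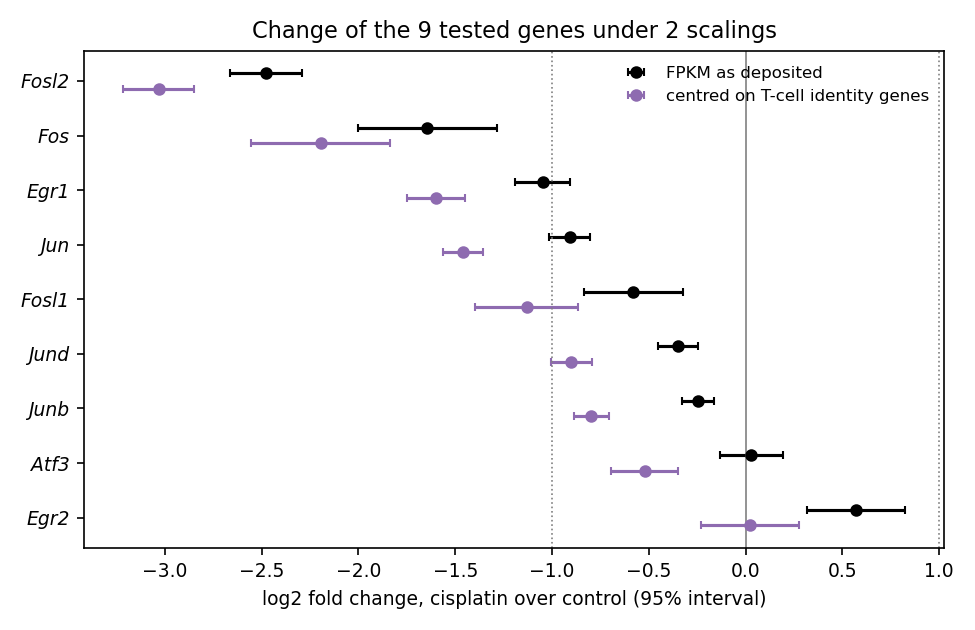
Log2 fold change, cisplatin over control, of the 9 tested genes with 95% intervals (horizontal axis), from FPKM as deposited (black) and after centring each library on the T-cell identity genes (purple); the solid line marks no change and the dotted lines a 2-fold change. Fosl2 lies farthest to the left at -2.48 and -3.03, and Egr2 moves from 0.57 to 0.02.

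Other bZIP factors moved in both directions. Of 28 genes tested, 18 fell and 7 rose, with a median of -0.34. Over all genes 29% fell and 27.5% rose, with a median of 0.03. Cebpd, a factor of acute-phase responses, fell from 12.9 ± 0.724 to 1.53 ± 0.335 FPKM (log2 -3.02, limma adjusted p = 5.5e-06), and Maff (-1.92) and Cebpb (-1.46) fell with it. Batf and Batf3, which pair with Jun proteins on composite elements with IRF4, rose: Batf from 12.0 ± 0.696 to 23.5 ± 1.06 FPKM (log2 0.97, limma adjusted p = 1.4e-05) and Batf3 by 0.94, while Bach2, a repressor of effector genes, rose by 0.62. Their relative Batf2, named after its values were seen, fell from 4.001 ± 0.112 to 1.155 ± 0.0469 FPKM (log2 -1.71, limma adjusted p = 8.3e-06). Centred on the T-cell identity genes, 23 of the list were lower and 2 higher, where 64.8% of all genes were lower and 5.09% higher.

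Among other immediate early genes, 14 of 33 tested fell and 10 rose (median -0.12), where 29% of all genes fell and 27.5% rose. The largest falls were those of Ctgf (log2 -4.20, 1.76 against 33.9 FPKM), a matricellular gene, Ier3 (-2.83, 30.4 against 216 FPKM), a survival gene, and Klf4 (-2.43, 10.1 against 54.5 FPKM). Egr3, the closest partner of Egr2 in T cells, rose by 0.87, from 4.75 ± 0.253 to 8.73 ± 0.552 FPKM (limma adjusted p = 6.2e-05), and Mcl1 and Dusp2 rose by 0.46 and 0.34. After the centring 30 of the 33 were lower and 1 was higher, where 64.8% of all genes were lower. Relative to the median of all genes the list stood at -0.15 in the median, a value the centring cannot change. After quantile normalization it stood at -0.22.

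The kinases upstream showed a mixed picture, as did all genes (29% fell and 27.5% rose), and of the genes that restrain them more fell than rose. In the MAP kinase cascade with its ternary complex factors, 13 of 32 genes fell, 7 rose and 12 did not pass. The median was -0.05, against 0.03 over all genes. Map2k1 (MEK1) fell by 1.30 and Mapk3 (ERK1) by 0.97 on the log2 scale, Nab1, a corepressor of Egr proteins, by 0.60, whereas Elk4 rose by 0.58, Map3k5 by 0.55 and Mkl1, an SRF coactivator, by 0.48. After quantile normalization the balance was the other way, with 11 lower, 13 higher and a median of 0.04. Of 18 genes that restrain Ras and MAP kinase signalling (dual-specificity phosphatases, Sprouty and Spred genes and Ras GTPase-activating proteins among them), 10 fell and 2 rose (median -0.47). Dusp6, an ERK phosphatase, fell from 34.2 to 11.5 FPKM (log2 -1.57), with Spred1 at -1.496 and Spred2 at -1.438, whereas Dusp2 and Rasa1 rose by 0.34 and 0.32. After the centring 28 of the 32 and 17 of the 18 were lower and 0 of either higher. Over all genes the centring put 64.8% lower and 5.09% higher.

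Of 25 tested genes known as AP-1 targets, 15 fell and 3 rose (median -0.43), where 29% of all genes fell and 27.5% rose. The 3 rises became 6 with limma's voom, 5 after quantile normalization and 0 with a minimum of 5 FPKM. Vegfa, an angiogenic growth factor, fell from 100.5 ± 3.14 to 10.1 ± 0.461 FPKM (log2 -3.31, limma adjusted p = 6.3e-08) and Hmox1, a heme-degrading enzyme, from 102 to 30.4 FPKM (-1.75). The T-cell activation marker Cd69 rose from 4.06 to 5.18 FPKM (0.35). The other rises, below 5 FPKM and named after the values were seen, were larger: Csf2 by 1.15 and Tnf by 0.56 (limma adjusted p = 0.011 and 0.0022). After the centring 20 were lower and 0 higher, where 64.8% of all genes were lower and 5.09% higher.

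**Figure D4:**
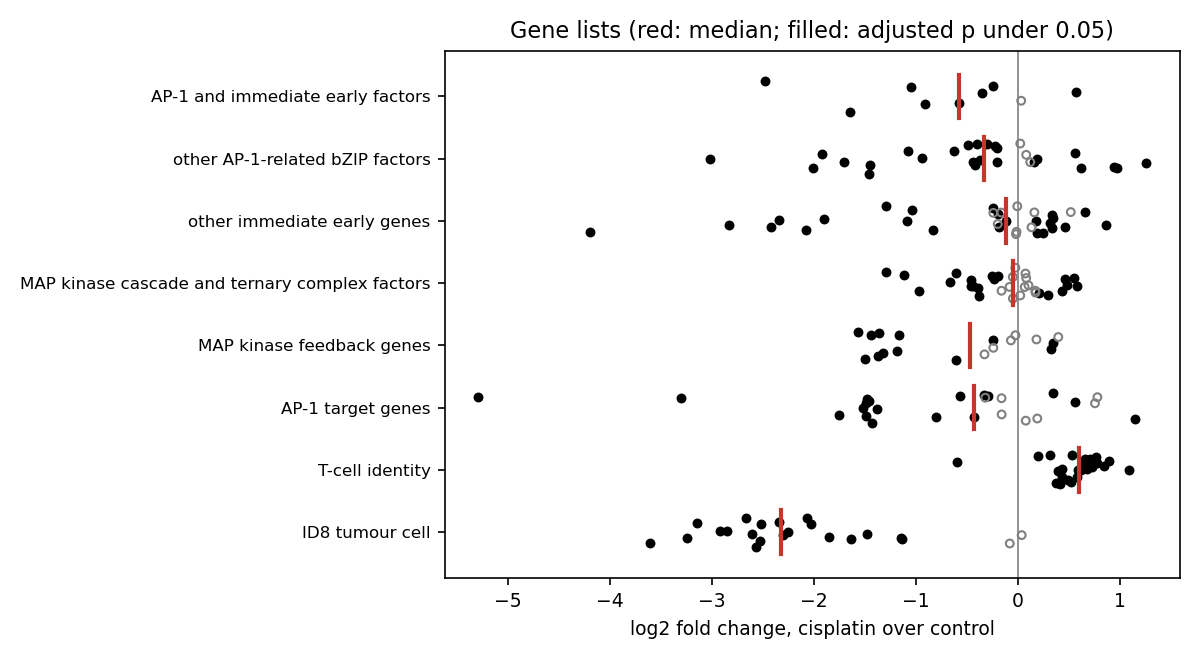
Log2 fold change, cisplatin over control, of each tested gene (points) in the 10-gene set, 5 related lists and 2 marker lists; filled points passed an adjusted p of 0.05 and red bars are medians. The medians of the related lists lie between -0.47 and -0.05, the T-cell identity genes centre on 0.60 and the ID8 markers on -2.32.

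By the family column of the table, 40 further genes are bZIP factors, of which 34 were tested, 20 fell and 8 rose (median -0.26). The C2H2 zinc finger family, to which Egr1 and Egr2 belong, counted 394 further tested genes, of which 72 fell and 107 rose (median 0.08). Both counts are to be read against all genes tested, of which 29% fell and 27.5% rose. The family column was used after the values were seen, and these counts are descriptions. Egr1 (-1.05) and Egr2 (0.57) thus stood on either side of a family median near that of all genes, and the 6 tested members of the Jun and Fos families all fell, with Junb (-0.25) near the median of the other bZIP factors.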

How the data were processed

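Deposited FPKM for 54532 genes in 6 libraries (3 per group, grouped by the treatment in the labels) were used. The authors normalized these FPKM for gene length and library. For the pipeline, the paper's methods name LifeScope, whereas the submitters' processing notes list fastp, HISAT2 2.0.5, featureCounts 1.5.0-p3 and mm10. Strand counting is not given in the sources used here. Gene coordinates were the same as in GENCODE M21 (GRCm38) for 53499 of 54409 shared genes, Fosl1 being an exception. Columns of other samples numbered 0, and the authors' own comparisons (DESeq2) were not used.

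Reads were rebuilt from FPKM times gene length (100% of nonzero values came within 0.1 of whole numbers); they give the depth and cover counting error only. The test was limma 3.58.1 (R 4.3.3, lmFit and eBayes with trend) on log2(FPKM + 0.1), which understates changes of low genes, for the 15874 genes averaging 0.5 FPKM or more (33456 had any value). Benjamini-Hochberg adjustment ran over all of them. A call also needed 2-fold. The T-cell centring divided each library by the level of its T-cell identity genes. Intervals are 95%.

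On simulated data of this comparison (15870 genes tested), 191 of 192 changed genes that were tested and 3 unchanged genes were called. The changes put in were all past the 2-fold line, in 200 genes above a minimum of reads. Every gene had the same small spread, and no shift in cell make-up was put in. The simulation therefore cannot tell how genes near the line, such as Egr1 and Jun, are called. Alternatives were pseudocounts, filters, scalings, voom on reads of at least 10 in 3 libraries, leaving out a library and a replicate block. The genes, lists and tests were chosen with earlier results of these data known. Named genes of a related list were the 3 largest falls and rises with adjusted p under 0.05, no overlap and 5 FPKM or more in the higher group. Some results that the rule would name are not reported here. Python 3.11.15, numpy 2.4.6, pandas 2.3.3, scipy 1.17.1 and matplotlib 3.10.9 were used.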

Additional observations from a re-analysis of the deposited data

How the results depend on the processing

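Over the 17 alternatives to the chosen fit, the falls of Fosl2, Fosl1, Jun, Junb, Jund and Egr1 kept their direction and passed in each, and that of Fos in the 16 in which it was tested. With a mean of at least 5 FPKM, Fos and Egr2 were not tested, 0 members were higher, and 903 genes were called lower and 242 higher, in place of 2034 and 653. A pseudocount of 1 left 311 called higher. Centred on the T-cell identity genes, 3588 genes were called lower and 147 higher, 5 members were called lower and 0 were higher at the adjusted p, the related and stress lists together had 130 lower and 3 higher in place of 79 and 33, and Atf3 turned to -0.52. Lower calls made up 75.7% of all calls, 96.1% after that centring and 64.6% after quantile normalization, which moved the median of all genes to 0.16. With rebuilt reads in place of FPKM the share of Fosl1 was 10.7% and 3.23% of the Fos family, that of Fosl2 80.6% and 91.8%, and that of Jun 23.6% and 32.6% of the Jun family, cisplatin first, because reads are not divided by gene length. The share of Fosl2 and its alternatives were chosen after the values were seen.

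Leaving out 1 library at a time moved no member's call; Atf3, which did not pass, ran from -0.013 without cisplatin replicate 2 to 0.091 without cisplatin replicate 3. Members at the adjusted p stayed at 7 lower and 1 higher, and genes called ran from 1963 to 2045 lower and from 579 to 692 higher. With the replicate number as a block, 7 members were lower and 1 higher and Fosl2 had an adjusted p of 7.3e-05 in limma, so the block changed no member's call. Libraries of the same number did not deviate together (correlation -0.063 to 0.023, against -0.061 to 0.083 for different numbers). Whether the numbers pair the libraries by design is not given in the sources used here, and this check cannot settle it.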

Other observations

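Stress genes moved in both directions, as did all genes (29% fell and 27.5% rose). Of 9 heat shock genes tested, 4 fell and 4 rose (median log2 fold change -0.23): the small heat shock gene Hspb1 fell by 2.58 and the co-chaperone Bag3 by 1.44, and Hsp90aa1 by 0.52, whereas Hsph1 rose by 0.52, Hspe1 by 0.49 and Hspa8 by 0.25. Centred on the T-cell identity genes, 7 were lower and 0 higher, where 64.8% of all genes were lower and 5.09% higher. Of 12 genes of the integrated stress response, the ATF4 pathway, 6 fell and 2 rose (median -0.24), with Vldlr at -3.46, Nupr1 at -3.18 and Trib3 at -1.31, and with Phgdh at 0.55 and Ddit3 (CHOP) at 0.18 (limma adjusted p = 0.047), the latter on 18.3 ± 0.770 against 16.1 ± 1.19 FPKM. The count of 2 rises was smaller in 10 of the 17 alternatives, among them voom and the replicate block with 1. After the centring 11 of the 12 were lower and 0 higher.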
